A study of Homo sapiens with 6 samples.

Results

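Expression of nuclear pore complex genes was compared in DTX-resistant prostate cancer cells with and without induced MUC1 silencing. The 30 genes were chosen by name as components of the pore, and all 30 were found among the 28008 genes of the count table and passed the filter on low counts. They were chosen with earlier results of these data known, and NUP43 was read apart from the other 29 genes from the start. The cells were DU-145-DR/tet-MUC1shRNA, a derivative of the prostate cancer line DU-145 that was selected for resistance to docetaxel (DTX) and that carries a hairpin against MUC1 under the control of doxycycline (DOX). Both groups were the same resistant, hairpin-carrying line. Poly(A) RNA-Seq libraries came from 3 vehicle cultures (DOX-negative) and 3 cultures treated with DOX at 500 ng/ml for 7 days (DOX-positive), and they held between 15092691 and 23243713 counts each. Because the comparison was made with 1 inducible line and no DOX-treated cells without the hairpin were analysed here, effects of DOX, of the hairpin on other messages and of MUC1 loss cannot be told apart. In the labels the hairpin is named only under the DOX-positive samples. They describe cultures in triplicate without saying whether these were independent, and p-values then measure only the spread between these samples, which may be technical.

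The nuclear pore complex is the channel through the nuclear envelope that carries proteins and RNA between nucleus and cytoplasm. Its scaffold is built from the Y complex, which forms the outer rings, and from an inner ring that is held to the membrane by transmembrane nucleoporins. Nucleoporins rich in phenylalanine-glycine repeats fill the central channel and bind transport receptors, while filaments on the cytoplasmic side take part in the release of exported messages and a basket extends into the nucleus. The Y complex also sits on kinetochores in mitosis.

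MUC1 itself checked the labels. Its raw counts were 387, 484 and 396 without DOX and 75, 74 and 66 with DOX, a log2 fold change of -2.52 (SE 0.146, adjusted p 4.47e-11 in edgeR). Here and below, log2 fold changes are DOX-positive over DOX-negative, and levels are CPM, counts scaled to a common library size with TMM factors, which correct for differences in composition between libraries. A gene was called where its Benjamini-Hochberg adjusted p in edgeR's quasi-likelihood test, over 14292 genes tested, was under 0.05. The 5 markers of immune, endothelial and stromal cells summed to at most 0.835 CPM in any library. Of the epithelial markers (KRT8, KRT18, KRT19, EPCAM and CDH1), 5 of 5 rose, with a summed level of 757 to 837 CPM in the DOX-negative libraries and 1443 to 1516 CPM in the DOX-positive libraries. The division markers summed to 3947 to 4220 CPM and 3474 to 3981 CPM. Of these 12, 3 were lower (MCM3, MCM4 and MCM5) and 0 higher, against 13.7% lower and 13.0% higher of all genes tested. The other division markers, MKI67 and CDK1 among them, were not called. The part of these differences in the pore results was not tested.

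NUP43 and MUC1 share a short sequence. The heptamer ATCAGTA, searched on the sense strand of 1 principal transcript a gene (GENCODE 29, GRCh38), was singled out in an earlier scan of these same libraries for its relation to lower expression, so its presence in a gene that fell is no independent evidence. It occurs 2 times in the 3′UTR of NUP43, at bases 108 and 376 of the 2654 that the 3′UTR holds. It occurs 1 time in MUC1, in the coding sequence. The MUC1 transcript searched has 859 bases and a 3′UTR of only 12 bases, so the search says little about the MUC1 3′UTR. TPR also has 2 copies in its 3′UTR and NUP107 has 1 there besides 2 in its coding sequence, and they are shown for contrast because neither gene was called. Each sequence is written 5′ to 3′ in the sense of the message, with the heptamer in capitals and 10 bases on each side.
NUP43 3′UTR, chr6:149726845-149726871, minus strand: caggggaaacATCAGTAaactaccatt
NUP43 3′UTR, chr6:149726577-149726603, minus strand: tacaatttttATCAGTAgtatgtggca
MUC1 coding sequence, chr1:155187762-155187788, minus strand: acacagttcaATCAGTAtaaaacggaa
TPR 3′UTR, chr1:186312480-186312506, minus strand: tgagtttttcATCAGTAagcttaaatt
TPR 3′UTR, chr1:186312449-186312475, minus strand: gggctgtttgATCAGTAtccatatttc
NUP107 3′UTR, chr12:68743549-68743575, plus strand: agattaagaaATCAGTAtgagcaagaa

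Over the 30 pore genes, 9 hold the heptamer somewhere in the transcript, 3 hold it in the 3′UTR (NUP43, TPR and NUP107) and 2 hold 2 or more copies there (NUP43 and TPR). Among 12376 tested genes with a principal transcript, 16.9% hold it anywhere, 9.77% in the 3′UTR and 1.63% in 2 or more copies in the 3′UTR. The other 6 genes, NUP133, NUP160, NUP188, NUP210, NUP214 and RANBP2, hold it in the coding sequence. Of the 3 genes with it in the 3′UTR, NUP43 fell, and TPR and NUP107 were not called. Of the 6 with it only in the coding sequence, NUP160 fell, NUP210 rose and the rest were not called. The shares above do not take transcript length into account. These matches are descriptions of the transcripts, and their part in any change was not tested.

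NUP43 fell with MUC1 silencing and was farthest from 0 among the 30 genes. NUP43 (ENSG00000120253.13, chr6:149724315-149749665, minus strand) encodes a WD-repeat subunit of the Y complex. It read 65.9, 64.0 and 59.6 CPM in vehicle libraries and 25.4, 21.6 and 25.7 CPM in DOX libraries. The lowest vehicle library was thus well above the highest DOX library. The mean went from 63.2 ± 3.26 to 24.2 ± 2.33 CPM (SD, n = 3), leaving 38.4% of the vehicle level, and the log2 fold change was -1.38 (SE 0.0888, adjusted p 1.82e-10 in edgeR). From the lowest value upward it ranked 84 of the 14292 genes tested, whereas the next largest change among the pore genes was -0.34. NUP43 was called in all 15 alternative settings, with log2 fold changes from -1.76 to -1.30.

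The fall of NUP43 was also seen within each library against the rest of its complex, a measure that does not depend on library scaling. NUP43 stood at 67.3% to 80.2% of the geometric mean CPM of the other 7 Y complex genes in the DOX-negative libraries and at no more than 33.0% in the DOX-positive libraries. On the log2 scale this ratio was -0.42 ± 0.13 and -1.67 ± 0.098 (SD, n = 3), a difference of -1.25. NUP43 exons overlap those of PCMT1 on the opposite strand over 5.03% of their bases, and the strand setting of the authors' counting is not given in the sources used here. PCMT1 had a log2 fold change of 0.022 (adjusted p 0.864 in edgeR). Only 1.54% of the 50-base windows of the NUP43 transcript occur in transcripts of other genes.

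**Figure D1:**
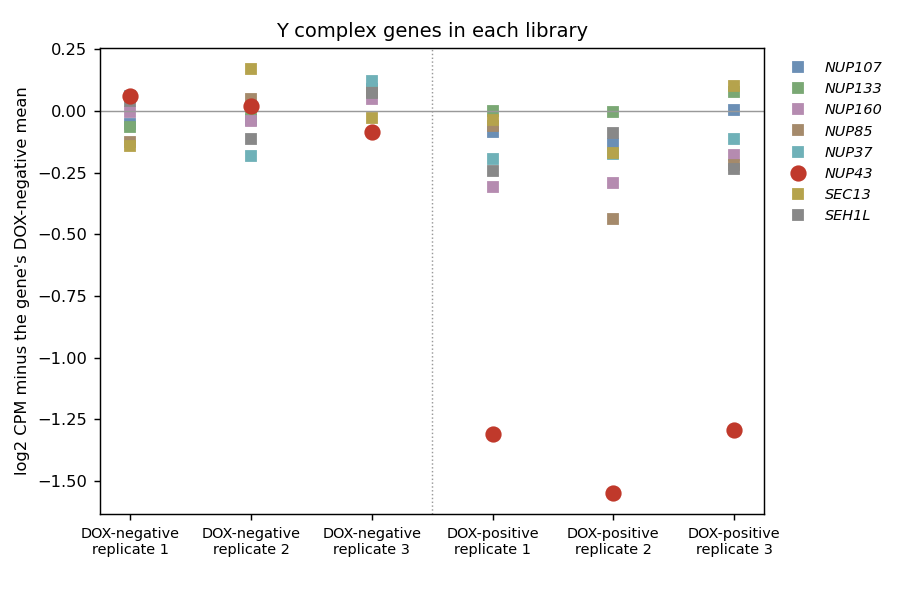
Each point is the log2 CPM of 1 of the 8 Y complex genes in 1 library minus that gene's mean over the DOX-negative libraries (vertical axis), for the 3 DOX-negative and 3 DOX-positive libraries (horizontal axis). NUP43 (large circles) lies below the other 7 genes (squares) in each DOX-positive library and close to 0 in the DOX-negative libraries.

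Of the 30 genes, 10 were called, 7 lower and 3 higher, a split that was 9 lower and 1 higher when libraries were scaled by total counts. That is 33.3% of the genes, against 26.7% of all genes tested. In the lower direction it is 23.3% against 13.7%, and in the higher direction 10% against 13.0%. The 2 groups of libraries did not overlap in CPM for 12 pore genes, 9 lower and 3 higher, which is 40% against 39.8% of all genes tested (20.2% lower and 19.5% higher). Without NUP43, 9 of 29 were called and the median log2 fold change was -0.068, beside -0.0034 over all genes tested. These 9 changes were small, from -0.34 to 0.29, while the median absolute log2 fold change of all genes tested was 0.19. The count depended on single libraries, since it was 6 without DOX-negative replicate 1 and also 6 without DOX-negative replicate 3. NUP155, NUP160, POM121 and NUP210 were called in all 12 alternatives that used the counts. NUP43 thus stood apart from the other called genes by the size of its change.

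**Figure D2:**
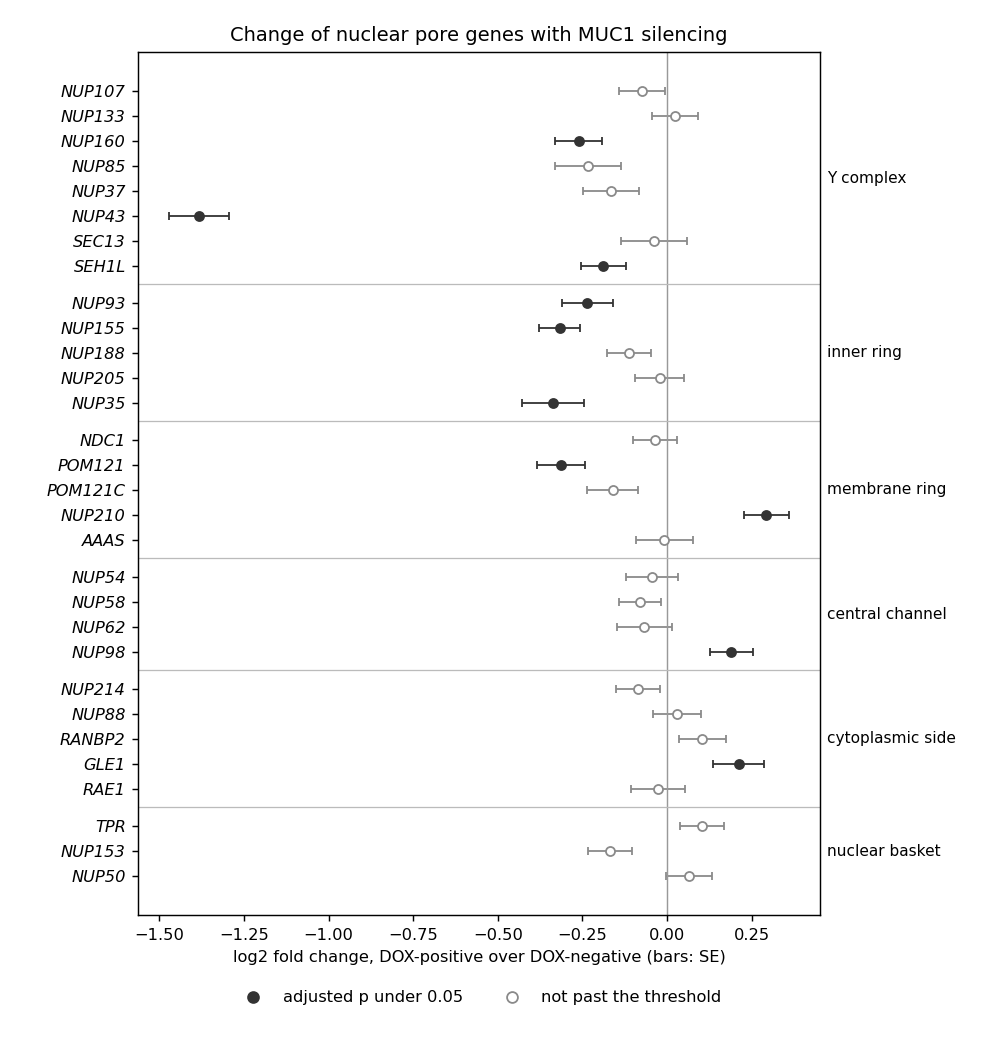
The log2 fold change of each of the 30 pore genes, DOX-positive over DOX-negative (horizontal axis), with its SE as bars, is grouped by subcomplex. Filled points passed the adjusted p threshold and open points did not. NUP43 lies at -1.38, while the other 29 genes lie between -0.34 and 0.29.

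Of the 8 genes counted with the Y complex, 3 fell (37.5%) and 0 rose, against 13.7% lower and 13.0% higher of all genes tested. When NUP43 was set aside, 2 of 7 fell (28.6%). NUP98, whose precursor also yields the Y complex subunit NUP96, was counted with the central channel and was called higher (0.19, adjusted p 0.0285 in edgeR). NUP160 (chr11:47778087-47848555, minus strand), a scaffold subunit in the arm of the Y, read 95.4, 93.0 and 98.9 CPM without DOX and 77.2, 78.1 and 84.6 CPM with it. The groups did not overlap, and NUP160 fell by 0.26 in log2 units (SE 0.0699, adjusted p 0.00778 in edgeR). SEH1L (chr18:12947133-12987536, plus strand), a WD-repeat subunit shared with the GATOR2 complex of nutrient sensing, read 263, 237 and 269 CPM and then 216, 241 and 218 CPM. Here 1 DOX-positive library, replicate 2, was above the lowest DOX-negative library, so the groups overlapped. SEH1L fell by 0.19 (SE 0.0668, adjusted p 0.0402 in edgeR), a call that was lost when any library other than replicate 2 of either group was left out (adjusted p 0.146 to 0.154). The other 5 Y complex genes were not called. NUP107 and NUP133, which join in the stem, had log2 fold changes of -0.074 (SE 0.0676) and 0.023 (SE 0.0677). NUP85 and NUP37, both in the arms, had -0.23 (SE 0.0965, adjusted p 0.0784 in edgeR) and -0.17 (SE 0.0831). SEC13, which also forms part of the COPII coat of secretory vesicles, had -0.039 (SE 0.0966).

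The inner ring had 3 of 5 genes lower (60%) and 0 higher, against 13.7% lower and 13.0% higher of all genes tested. Its median log2 fold change was -0.24. NUP155 (chr5:37288137-37371181, minus strand), a scaffold protein that contacts the membrane, read 437, 415 and 460 CPM in the DOX-negative libraries and 354, 342 and 356 CPM in the DOX-positive libraries. All 3 DOX-positive libraries were below all 3 vehicle libraries. NUP155 fell by 0.32 (SE 0.0611, adjusted p 0.000479 in edgeR). NUP35 (chr2:183117513-183161680, plus strand), a small membrane-binding linker, read 42.8, 35.5 and 42.3 CPM without DOX and 30.05, 33.6 and 31.9 CPM with it. Its groups were narrowly apart, between 35.5 and 33.6 CPM. NUP35 fell by 0.34 (SE 0.0920, adjusted p 0.00907 in edgeR), and the adjusted p was 0.0617 without DOX-negative replicate 1. NUP93 (chr16:56730105-56850286, plus strand), the linker that recruits the channel nucleoporins, read 99.2, 100.2 and 105 CPM and then 85.4, 78.6 and 94.9 CPM. The groups did not overlap, although DOX-positive replicate 3 came close to the vehicle libraries. NUP93 fell by 0.24 (SE 0.0747, adjusted p 0.0228 in edgeR), and it was no longer called without DOX-negative replicate 1 or 3 or DOX-positive replicate 1 or 2 (adjusted p 0.0533, 0.0807, 0.068 and 0.0902). The large scaffold proteins NUP188 and NUP205 were not called, at -0.11 (SE 0.0645) and -0.021 (SE 0.0723).

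Among the membrane ring genes, POM121 fell, NUP210 rose and the other 3 were not called. That is 20% each way, against 13.7% lower and 13.0% higher of all genes tested. NUP210 (chr3:13316235-13420309, minus strand), a transmembrane glycoprotein, read 137, 143 and 129 CPM in the DOX-negative libraries and 164, 177 and 159 CPM in the DOX-positive libraries. Each DOX-positive library was above each vehicle library. NUP210 rose by 0.29 (SE 0.0669, adjusted p 0.00225 in edgeR). POM121 (chr7:72879365-72951440, plus strand), a transmembrane protein with repeats that reach into the pore, read 79.5, 86.1 and 80.1 CPM and then 65.7, 65.7 and 66.4 CPM. The groups were apart, and POM121 fell by 0.31 (SE 0.0708, adjusted p 0.00209 in edgeR). Its near-identical paralog POM121C had -0.16 (SE 0.0750, adjusted p 0.120 in edgeR). For each of these paralogs 63.3% of the 50-base windows of its transcript also occur in other genes, chiefly in the other paralog, so the split of reads between them is uncertain. The pseudogene NSUN5P2 overlaps 18.8% of the POM121 exon bases on the opposite strand and had a log2 fold change of -0.22 (adjusted p 0.480 in edgeR). NDC1, a transmembrane anchor, and AAAS, the protein ALADIN that NDC1 anchors, had -0.036 (SE 0.0655) and -0.0079 (SE 0.0846).

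**Figure D3:**
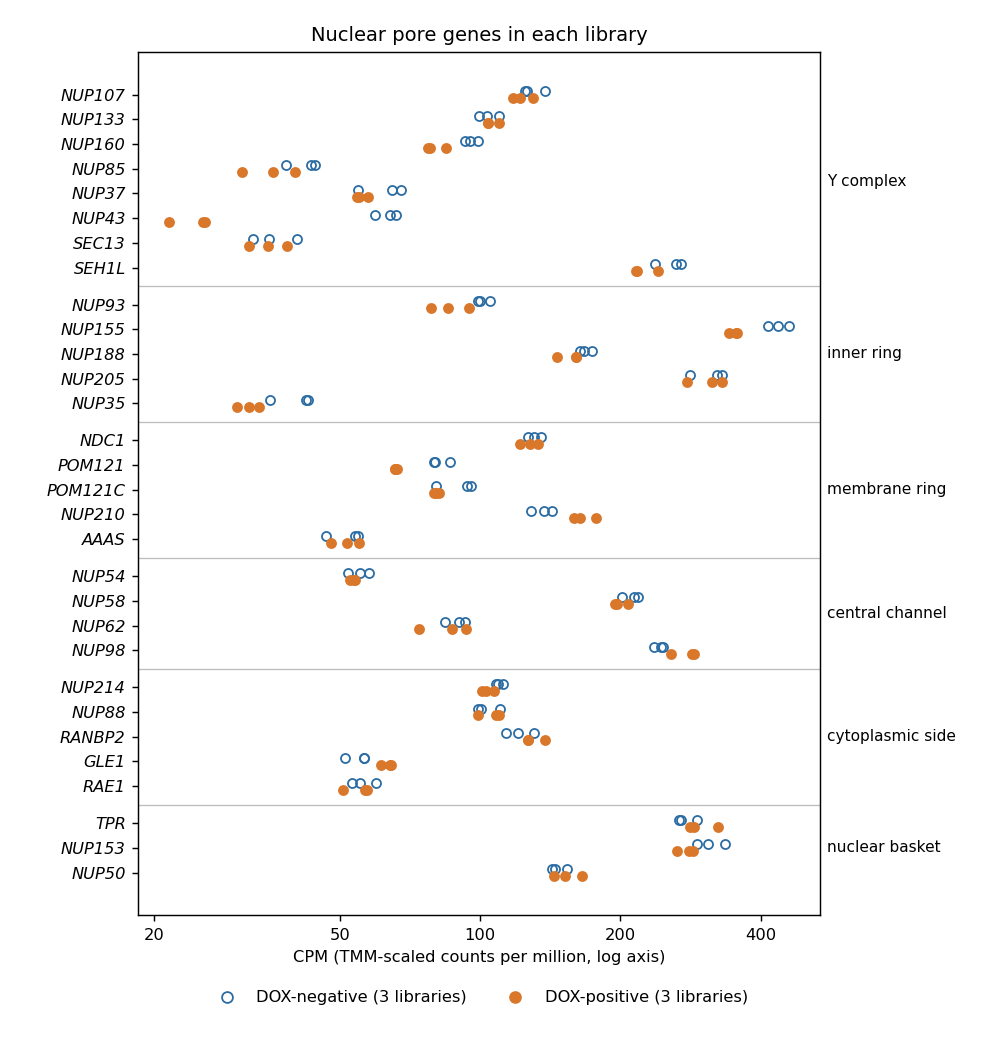
The CPM of each pore gene is plotted on a log axis for the 3 DOX-negative (open) and 3 DOX-positive (filled) libraries, by subcomplex. The groups are separate for 12 genes, widely for NUP43 and narrowly for genes such as NUP35 and NUP98.

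Of the 4 central channel genes, NUP98 rose and the others were not called. That is 25% higher, against 13.0% higher of all genes tested. NUP98 (chr11:3671083-3797792, minus strand) gives rise to a repeat nucleoporin of the permeability barrier and, from the same precursor, to the Y complex subunit NUP96. It read 245, 246 and 236 CPM without DOX and 288, 257 and 285 CPM with it. The groups did not overlap. NUP98 rose by 0.19 (SE 0.0627, adjusted p 0.0285 in edgeR), but leaving out any 1 library other than DOX-negative replicate 2 or DOX-positive replicate 2 ended the call (adjusted p 0.0804 to 0.127), as did scaling by total counts (0.0705). The 3 partners of the channel trimer, NUP54, NUP58 and NUP62, had log2 fold changes between -0.079 and -0.045. For NUP62, 15.8% of the transcript windows also occur in other genes, and ATF5 overlaps 10.4% of its exon bases on the opposite strand.

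On the cytoplasmic side, GLE1 rose and the other 4 genes were not called. That is 20% higher, against 13.0% higher of all genes tested. GLE1 (chr9:128504700-128542288, plus strand), which activates the helicase DDX19 in the last step of mRNA export, read 56.3, 56.3 and 51.3 CPM without DOX and 61.3, 64.4 and 64.2 CPM with it. All DOX-positive libraries were above all vehicle libraries. GLE1 rose by 0.21 (SE 0.0755, adjusted p 0.0421 in edgeR), which was the weakest of the 10 calls: it was kept in 4 of the 12 alternatives that used counts, and leaving out any library except DOX-negative replicate 2 ended it (adjusted p 0.0616 to 0.162). NUP214 and NUP88, partners in a subcomplex that holds the export receptor XPO1, had -0.086 (SE 0.0655) and 0.029 (SE 0.0709). RPAIN and RABEP1 overlap 9.82% and 8.84% of the NUP88 exon bases on the opposite strand. RAE1, an mRNA export factor bound by NUP98, had -0.027 (SE 0.0798). RANBP2, the large filament protein with SUMO ligase activity, had 0.10 (SE 0.0695). Its value is uncertain, since 27.1% of its transcript windows also occur in RGPD genes. Of those copies, RGPD2, RGPD5, RGPD6 and RGPD8 had 0 counts in all libraries and RGPD1 had at most 6, whereas RGPD3 and RGPD4 had 31 to 57 and 12 to 26 counts and were not called.

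In the nuclear basket 0 of 3 genes were called by edgeR or by DESeq2, with 1 of 3 at an unadjusted p under 0.05 in edgeR. Of all genes tested, edgeR called 26.7% and DESeq2 26.1%, so 0 of 3 does not set the basket apart. TPR, the coiled-coil protein of the basket filaments, read 267 to 292 CPM and 281 to 323 CPM, a log2 fold change of 0.10 (SE 0.0662, adjusted p 0.267 in edgeR). Its groups overlapped. NUP153, which anchors the basket to the ring, read 292 to 336 CPM and 264 to 287 CPM and had -0.17 (SE 0.0651). Its groups did not overlap, yet the adjusted p of 0.0576 in edgeR was above the threshold. The antisense gene AL138724.1 overlaps 9.25% of the NUP153 exon bases on the opposite strand. NUP50, a cofactor of importin-mediated import, had 0.065 (SE 0.0673), and 15.3% of its transcript windows also occur in other genes.

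Levels were compared between genes per length, as the share of the summed TPM (counts scaled by transcript length and library total) of the 30 genes within a library. NUP155 held the largest share, 10.3% ± 0.216 in the DOX-negative libraries and 8.87% ± 0.0843 in the DOX-positive libraries (SD, n = 3). SEH1L followed with 8.36% ± 0.377, apart from NUP155 above it and from NUP37 at 6.49% ± 0.539 below it. NUP37, NUP153, NUP58 and NUP205 overlapped in turn, between 5.46% and 6.49%, and most neighbours further down the order overlapped as well. POM121 was lowest with 0.966% ± 0.0684. NUP43 went from 1.85% ± 0.149, place 24 of 30, to 0.762% ± 0.0593, place 30 of 30. In the vehicle libraries it overlapped with its neighbours SEC13 and GLE1, so NUP43 was already a low-level gene of the pore per length.

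Per subcomplex, the Y complex held 27.6% ± 0.411 of the summed TPM without DOX and 25.9% ± 0.315 with it. Without NUP43 the Y complex shares were 25.8% ± 0.487 and 25.1% ± 0.373. The inner ring went from 24.5% ± 0.267 to 22.8% ± 0.546. Because these are shares of 1 sum, a lower share in the scaffold raises the others, and the cytoplasmic side went from 10.7% ± 0.154 to 11.8% ± 0.293. In all, the 30 genes took 0.410% to 0.422% of the counts in the DOX-negative libraries and 0.376% to 0.397% in the DOX-positive libraries.

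**Figure D4:**
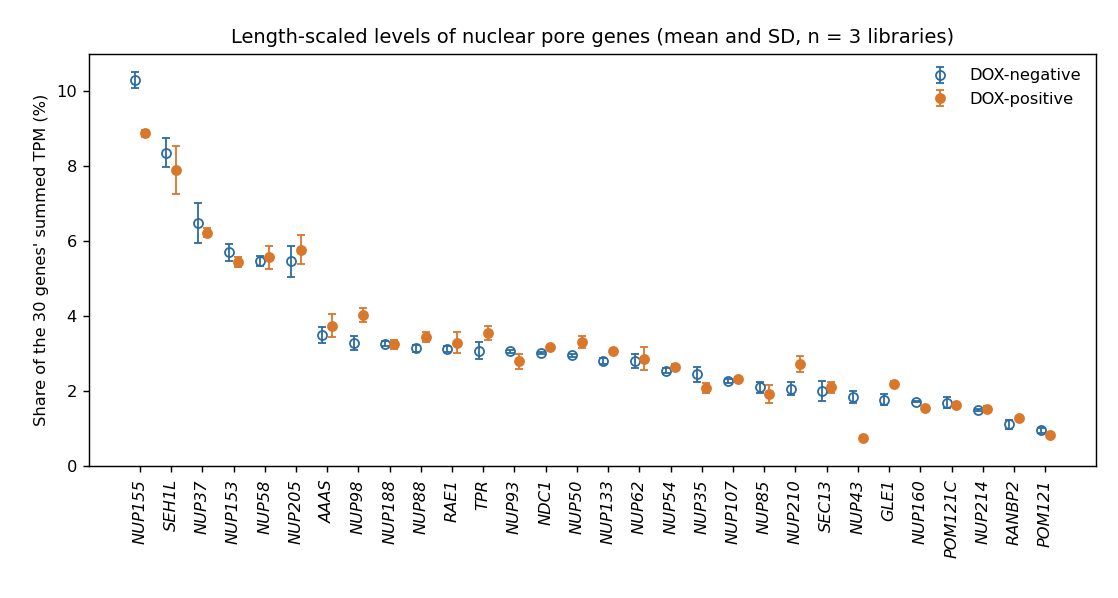
The share of the 30 genes' summed TPM within a library (vertical axis, percent) is plotted for each gene as mean and SD over 3 DOX-negative (open) and 3 DOX-positive (filled) libraries, in the order of the DOX-negative level. NUP43 moves from 1.85% to 0.762%, below all the other genes.

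Partner genes of the pore were read from lists of transport factors, envelope proteins and shared subunits. Of 109 tested, 34 were called (22 lower and 12 higher), which is 31.2% against 26.7% of all genes tested. The median of these 109 log2 fold changes was -0.060. Among the importins, 3 of 19 fell (15.8%) and 0 rose, against 13.7% lower and 13.0% higher of all genes tested. The 3 were IPO5 (-0.40, SE 0.0658), IPO7 (-0.23, SE 0.0625) and TNPO2 (-0.21, SE 0.0760), all import receptors. Among the exportins, 2 of 8 fell (25%) and 0 rose. These were XPO5, which exports miRNA precursors (-0.34, SE 0.0714), and XPO1, the receptor for leucine-rich export signals (-0.23, SE 0.0616). RAN, the GTPase that sets the direction of transport, had a log2 fold change of -0.018 (SE 0.0630), and in its cycle RANGAP1 alone was called (0.24, SE 0.0797) although its groups overlapped. That call was lost when replicate 1 or 3 of either group was left out, and the importins had 1 call without DOX-positive replicate 1.

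For mRNA export, 5 of 21 genes fell (23.8%) and 2 rose (9.52%), against 13.7% lower and 13.0% higher of all genes tested. The largest fall was that of NXT1, the partner of the export receptor NXF1 (-0.42, SE 0.141), at a mean of 9.75 and 7.29 CPM. The largest rise was that of DDX19B, a form of the helicase that GLE1 activates, from 29.4 ± 2.56 to 41.2 ± 1.02 CPM (0.49, SE 0.0880, adjusted p 0.000273 in edgeR). The other form, DDX19A, had 0.21 (SE 0.0959, adjusted p 0.105 in edgeR) and was not called, and its groups overlapped. In the lamina and envelope list 6 of 25 fell (24%) and 5 rose (20%). LBR, the lamin B receptor and a sterol reductase, fell most, from 154 ± 6.12 to 97.1 ± 2.62 CPM (-0.67, SE 0.0651), and VPS4A, an ATPase of membrane sealing, rose most (0.58, SE 0.0827). For SUMO at the pore 3 of 8 fell (37.5%) and 1 rose (12.5%). UBA2, a subunit of the SUMO-activating enzyme, was lowest (-0.31, SE 0.0649) and the protease SENP2 highest (0.30, SE 0.0726). The mRNA export list had 3 calls without replicate 1 of either group and 4 without DOX-negative replicate 3, and the lamina and envelope list had 7 without DOX-negative replicate 1 or 2 or DOX-positive replicate 3. Of the 2 pore components outside the 30 genes, AHCTF1 (ELYS), which seeds pore assembly on chromatin, had -0.16 (SE 0.0625, adjusted p 0.0700 in edgeR) and NUP42 had -0.044 (SE 0.105). Of 4 near copies of pore genes that could be tested (RGPD3, RGPD4, NUP62CL and NUP210L), 0 were called by edgeR or DESeq2 and 0 had an unadjusted p under 0.05 in edgeR.

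**Figure D5:**
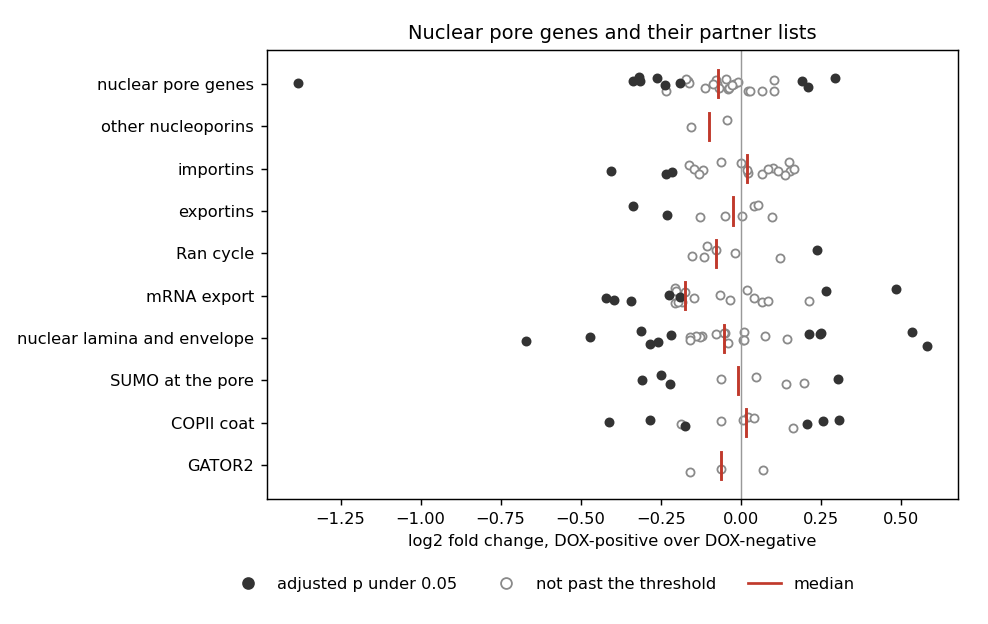
Each point is the log2 fold change of 1 gene, DOX-positive over DOX-negative (horizontal axis), for the pore genes and 9 partner lists. Filled points passed the adjusted p threshold, and the vertical line is the median of the list. NUP43 lies at -1.38, below all partner genes, of which LBR is the lowest at -0.67.

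The E-box CACGTG, a motif bound by MYC among other factors, was searched in promoters because the study concerns MUC1 and MYC. This palindrome reads alike on both strands. In windows of 250 bases before to 50 bases after the start (RefSeq, GRCh38.p14), it occurs in 2 of the 28 pore genes with an entry (NUP188 and NUP50), or 7.14%, against 12.5% of 10483 tested genes. NUP43 and GLE1 had no entry and were not searched. Of the genes with the motif, neither NUP188 nor NUP50 was called. MYC itself had a log2 fold change of 0.64 (SE 0.0732, adjusted p 1.02e-06 in edgeR) in these libraries. For the same line, the paper reports lower MYC on immunoblots after MUC1 silencing, a measure of protein and not of RNA. No match says only that these letters are not in the window.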

How the data were processed

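RNA-Seq of 6 libraries (TruSeq Stranded mRNA) was used. The submitters' processing notes name STAR, DESeq2 and GRCh38/hg38, and versions, annotation and strand setting of the counting are not given in the sources used here. The authors deposited raw counts of 28008 genes and a table of TPM for 25546 genes. Column names in both tables read DU145TR where the sample titles read DU145DR, and columns were matched to samples by DOX status and replicate number. In R 4.3.3, counts were filtered with filterByExpr (14292 genes), scaled by TMM and tested with edgeR 4.0.16 (quasi-likelihood, group only, two-sided, Benjamini-Hochberg adjusted p under 0.05). The script was tested on simulated data. Total counts were 15092691 to 23243713, so 3 counts equal 0.131 to 0.202 CPM. TPM were used for shares and, with limma 3.58.1, as an alternative on the log2(TPM + 1) and log2(TPM + 0.1) scales. In the deposited TPM, RN7SL1, RN7SL2, RN7SL3, RN7SK and RPPH1 take 34.4% to 64.4% of a library, so TPM of other genes depends on them, and they were also removed and the TPM rescaled. Counts were also tested with DESeq2 1.42.0, with a replicate block, unfiltered or with 10 counts required per library, scaled by RLE factors or by total counts, and with each library left out in turn.

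The members and lists were chosen with earlier results of these data known. Named were MUC1, all members (called ones and NUP43 per library), near-identical copies, AHCTF1, NUP42 and the called genes with the largest rise and fall of each partner list (all where 3 or fewer were called). MYC, PCMT1 and NSUN5P2 were added for the motif and for overlapping exons. NUP42 is listed under an older symbol. Libraries of 1 group differed by more than sampling noise (chi-square per degree of freedom 3.78 to 20.2), and each was counted as 1 replicate.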

Additional observations from a re-analysis of the deposited data

How the results depend on the processing

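MUC1 and NUP43 kept their direction and their call under the 15 alternatives. The deposited TPM moved most other values. From log2(TPM + 1) 443 genes were called in all, with 1 pore gene (NUP43) and 1 partner gene, the median of the 29 other pore genes was -0.45 and NUP43 relative to the other Y complex genes was -1.13. From log2(TPM + 0.1) these values were 408 genes, 1 pore gene, 1 partner gene and -0.46. Both scales moved the median of all genes (-0.32 and -0.39), and 6.77% and 7.11% of their calls were higher, against 48.8% from counts. They reversed NUP133 (-0.36 and -0.37), NUP210 (-0.099 and -0.10), NUP98 (-0.20 and -0.21), NUP88 (-0.35 and -0.36), RANBP2 (-0.27 and -0.29), GLE1 (-0.17 and -0.18), TPR (-0.28 and -0.29) and NUP50 (-0.32 and -0.33). TPM rescaled without the short noncoding RNAs called 9 pore genes, 8 lower and 1 higher. Total counts reversed NUP133 (-0.011) and NUP88 (-0.0051), neither of them called. This scaling also ended the calls of NUP98 (adjusted p 0.0705) and GLE1 (0.0971), and NUP85 (0.0442) and NUP153 (0.0168) passed, so that 9 pore genes were lower and 1 was higher.

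Leaving out each library in turn gave 6 to 12 pore genes called and 22 to 31 partner genes called. The partner count was 22 when replicate 1 of either group was left out. Log2 fold changes then ranged from -0.076 to 0.046 for AAAS, -0.0089 to 0.063 for NUP133, -0.087 to 0.047 for NUP205, -0.14 to 0.021 for NUP62, -0.0017 to 0.081 for NUP88, -0.064 to 0.024 for RAE1 and -0.11 to 0.052 for SEC13, none of them called. DESeq2, RLE factors, total counts, no filter and 10 counts per library gave 9 to 11 pore genes.

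The replicate numbers did not pair the samples: the correlation of same-numbered deviations was -0.019, -0.095 and -0.027. With a replicate block, 3158 genes, 7 pore genes and 27 partner genes were called, with NUP43 at -1.39, and SEH1L (0.0973), NUP98 (0.0764) and GLE1 (0.0901) had adjusted p above the threshold.

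With 3 libraries a group, log2 fold changes of pore genes had SE of 0.0611 to 0.0966. A pore gene above the threshold is not shown to be unchanged.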

Other observations

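SEC13 and SEH1L belong to other complexes besides the pore, and the genes of those complexes were read as well. In the COPII coat, which forms transport vesicles at the endoplasmic reticulum, 3 of 12 genes fell and 3 rose (25% each way, against 13.7% lower and 13.0% higher of all genes tested), with a median log2 fold change of 0.015. SEC24A, a cargo-binding coat subunit, fell from 138 ± 9.44 to 104 ± 7.25 CPM (SD, n = 3), a log2 fold change of -0.41 (SE 0.0721, adjusted p 0.000197 in edgeR). SAR1B, the GTPase that starts coat assembly, rose from 174 ± 13.6 to 216 ± 18.4 CPM, a change of 0.31 (SE 0.0725, adjusted p 0.00309 in edgeR). The other calls were SEC16A (-0.28) and SEC23A (-0.18), which were lower, and SEC23B (0.26) and SEC31A (0.21), which were higher. SEC23A and SEC23B, paralogs of 1 coat subunit, were thus called in opposite directions. Of the 3 GATOR2 genes outside the pore, edgeR and DESeq2 called 0, and 0 had an unadjusted p under 0.05 in edgeR. MIOS, WDR24 and WDR59 had log2 fold changes of -0.16 (SE 0.0827), -0.060 (SE 0.131) and 0.070 (SE 0.0734).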
